A study of Mus musculus with 15 samples.

Results

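The macrophage identity genes described here are 9 genes picked by symbol, and all 9 were found among the 56832 genes of the count table and passed the filter that left 18263 genes for testing. They are the lineage regulators Spi1 and Irf8, the growth factor receptor Csf1r, the surface proteins Ptprc, Itgam, Cd14 and Adgre1, and the intracellular or secreted products Lyz2 and Aif1. Bulk RNA-sequencing was carried out on bone marrow mesenchymal stromal cell (MSC) cultures of 16 week old mice of C57BL/6J background. TauT+/+ mice carry the taurine transporter gene Slc6a6, and TauT-/- mice are global knockouts, so every cell type of the animal lacks the transporter and not the MSCs alone. The 15 libraries comprised 4 TauT+/+ male, 3 TauT+/+ female, 4 TauT-/- male and 4 TauT-/- female libraries. Long bone marrow was grown without ascorbic acid, and non-adherent cells were washed away. The adherent cells were then sorted with magnetic beads as CD45-, and the methods of the study describe depletion of CD45, Ter119 and CD31 positive cells. Ptprc, which encodes CD45, is thus a target of the depletion itself.

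Total counts were 69764291 to 101575071 in the male-labelled and 12761107 to 20781070 in the female-labelled libraries, so depth and sex label cannot be told apart. Sex-linked genes disagreed with the label in 3 libraries (TauT+/+ male 1, TauT-/- male 1 and TauT+/+ female 3). Of 105 pairs of libraries, TauT-/- male 1 and female 1 (spread of log2 ratios 0.104) and TauT+/+ male 1 and female 1 (0.115) were near-identical, while the next pair was at 0.289. Separate animals behind the libraries are not stated, so p-values measure only the spread between these libraries. Slc6a6 itself was at 1560 ± 724 CPM (counts scaled to the library total; SD, n = 7) in TauT+/+ and 818 ± 416 (n = 8) in TauT-/- libraries, and the genotypes overlapped (log2 fold change -0.94, adjusted p = 0.141, edgeR). The TauT-/- libraries thus kept reads on the targeted gene, and whole-gene counts do not show which exons they came from.

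Macrophages depend on signalling through the CSF1 receptor, and the transcription factor PU.1, encoded by Spi1, sets up the myeloid programme and acts on many of its genes through purine-rich ETS motifs. IRF8 partners with PU.1 and directs progenitors towards monocytes rather than granulocytes. F4/80 (Adgre1), CD11b (Itgam), CD14 and lysozyme (Lyz2) are everyday markers of the lineage, and marrow macrophages are known to adhere in stromal cultures.

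The stretches before the annotated starts are shown because PU.1 motifs are the textbook link between these genes. RefSeq windows of 250 bases before to 50 bases after the start, on build GRCm38.p6, were used for 5 of the 9 genes (Itgam, Ptprc, Irf8, Lyz2 and Aif1), in 7 windows. The core GAGGAA, the PU.1 to IRF composite and the TATA box TATAAA were searched on both strands, and matches are in capitals (TTCCTC is GAGGAA on the other strand). Each sequence is 150 bases long, reads 5′ to 3′ on the strand of the gene and ends at the base before the start. The regions are chr7:128062490-128062639 (plus strand) for Itgam, chr17:35176053-35176202 (minus) for Aif1, chr8:120736208-120736357 (plus) for Irf8 and chr10:117282273-117282422 (minus) for Lyz2.
Itgam: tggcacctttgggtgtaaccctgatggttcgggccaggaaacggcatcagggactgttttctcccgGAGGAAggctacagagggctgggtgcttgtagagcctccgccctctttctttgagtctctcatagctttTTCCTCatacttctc
Aif1: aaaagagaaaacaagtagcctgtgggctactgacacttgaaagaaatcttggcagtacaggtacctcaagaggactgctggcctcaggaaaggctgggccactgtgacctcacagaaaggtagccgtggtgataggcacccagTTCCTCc
Irf8: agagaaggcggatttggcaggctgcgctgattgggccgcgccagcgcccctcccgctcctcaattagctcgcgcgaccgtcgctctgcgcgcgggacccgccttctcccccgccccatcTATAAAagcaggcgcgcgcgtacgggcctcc
Lyz2: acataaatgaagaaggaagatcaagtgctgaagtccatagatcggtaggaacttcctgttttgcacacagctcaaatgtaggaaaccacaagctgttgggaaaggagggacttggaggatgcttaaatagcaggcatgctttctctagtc
Counted from the start, with negative positions before it, Itgam held the core at -84, -15 and 32, Aif1 at -7 and Ptprc at -158. Irf8 held TATAAA at -31 on the strand of the gene, and Ptprc held it at -187 on the other strand only. The window of Lyz2 held none of these motifs, and the composite was in none of the 7. The core was in 28.3%, the TATA box in 13.6% and the composite in 2.71% of 32851 windows of the same length, so a match to the core is common and is a description of the letters only.

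The question put to the 9 genes was whether their level differs between TauT+/+ and TauT-/- cultures. Fitted levels of 8 genes were higher in TauT-/- by 0.87 to 1.28 on the log2 scale, and that of Aif1 was lower (-0.43). The median log2 fold change was 1.01, beside 0.0049 over all 18263 tested genes. However, 0 of the 9 were called higher at an adjusted p under 0.05 by the edgeR quasi-likelihood test, where 0.564% of all tested genes were, and 0 were called lower, where 0.591% were. At an unadjusted p under 0.05, 7 of the 9 were higher, beside 11.8% of all tested genes (23.6% in either direction). DESeq2 called Itgam, Irf8 and Cd14 (5.34% of tested genes called higher), and limma voom with quality weights called Itgam and Cd14 (3.61%). In bulk libraries a change in the number of cells of a type and a change in RNA per cell cannot be told apart.

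**Figure D1:**
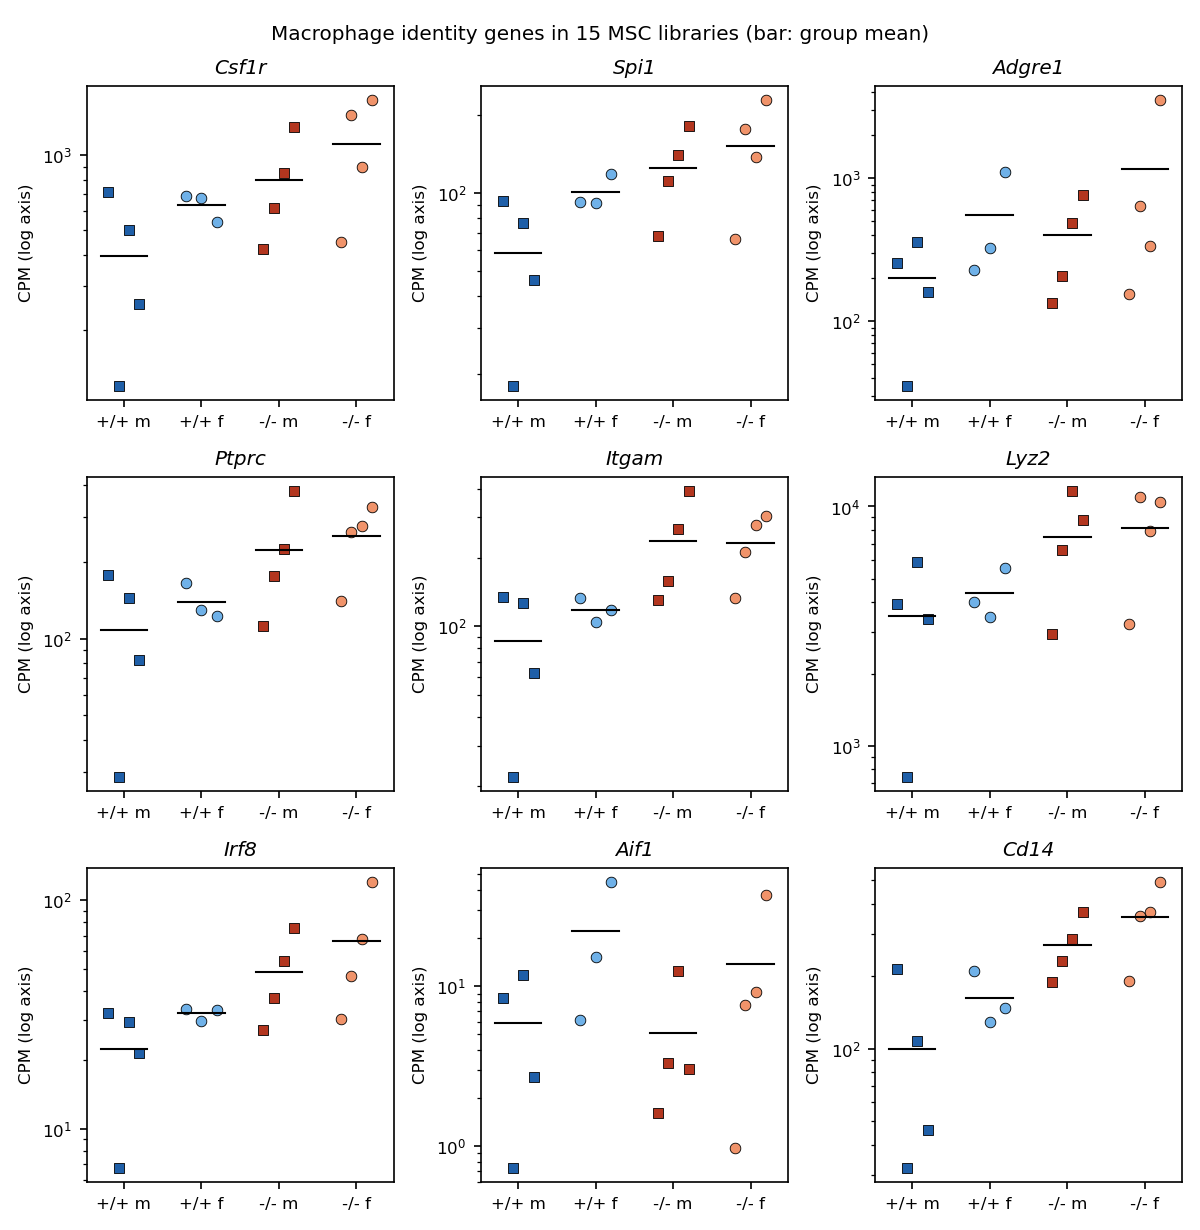
CPM on a log axis of each of the 9 genes in every library, by genotype and sex label (m, male; f, female; squares male, circles female), with a bar at each group mean. TauT+/+ male 2 is the lowest point in all 9 panels, and the genotypes overlap in each.

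The genotypes overlapped for every one of the 9 genes: 0 had all TauT-/- libraries above all TauT+/+ libraries, a pattern found in 0.788% of tested genes. A few libraries set the edges of the groups. TauT+/+ male 2 had the lowest value of all 15 libraries for 9 of 9 genes, and TauT-/- female 4 the highest for 5. The near-identical libraries TauT-/- male 1 and female 1 were the lowest 2 of the 8 TauT-/- libraries for 9 of 9 genes. Without the 3 libraries that disagreed with their sex label, the median log2 fold change of the 9 was 1.28, all 9 were positive and 0 were called by edgeR (lowest adjusted p = 0.156, 7 at an unadjusted p under 0.05). With 1 of each near-identical pair left out the median was 1.19 (female-labelled kept) or 1.10 (male-labelled kept), again with 0 called and 7 at an unadjusted p under 0.05. That count was 2 in the male-labelled libraries alone, beside 1278 of 16779 tested genes. In the female-labelled libraries alone it was 4, beside 2014 of 14209. It was 5 without TauT+/+ male 4 (beside 4045 of 16865) or TauT-/- female 4 (beside 4080 of 18105). Over all tested genes, the fit without the 3 libraries gave 3284 of 17417. The fits without 1 of each near-identical pair gave 3508 of 14994 (female-labelled kept) and 3818 of 19021 (male-labelled kept).

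Spi1 (chr2:90912562-90946101, plus strand, GRCm39) was at 93.2, 17.9, 76.7 and 45.8 CPM in TauT+/+ male libraries 1 to 4 and at 92.4, 91.2 and 118 CPM in the female ones. In TauT-/- it was at 68.0, 111, 140 and 182 CPM in the males and at 66.0, 176, 138 and 228 CPM in the females. Thus 5 of 8 TauT-/- libraries lay above the highest TauT+/+ library, while the near-identical pair lay among the TauT+/+ values. The means were 76.4 ± 33.8 (n = 7) and 139 ± 56.4 CPM (n = 8), a log2 fold change of 0.87 with a standard error of 0.34 (adjusted p = 0.141). Irf8 (chr8:121463096-121485659, plus strand) was the scarcer regulator. It ran from 6.73 over a median of 29.6 to 33.4 CPM in TauT+/+ and from 27.1 over 50.6 to 120 CPM in TauT-/- libraries. The lowest value was that of TauT+/+ male 2, and the remaining TauT+/+ libraries fell between 21.5 and 33.4 CPM. The log2 fold change of Irf8 was 1.08 ± 0.34 (SE; adjusted p = 0.0912).

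Csf1r (chr18:61229714-61266535, plus strand), the receptor for CSF1 and IL-34, ran from 119 over 541 to 711 CPM in TauT+/+ and from 420 over 873 to 1663 CPM in TauT-/- libraries. Above the highest TauT+/+ library lay 5 of the 8 TauT-/- libraries. The means were 498 ± 230 and 955 ± 467 CPM, with a log2 fold change of 0.92 ± 0.37 (SE; adjusted p = 0.155). Among 9 genes of the CSF receptor axis, all tested, 5 had a positive and 4 a negative fold change and 0 passed the test. The 1 at an unadjusted p under 0.05 by edgeR was Csf1r itself, beside 23.6% of all tested genes. Without Csf1r 4 of 8 were positive. The positive ones were all receptor chains and the negative ones all ligands, 2 of them with a mean under 1 CPM. This split was seen after the values were known and was not tested. Csf1, a ligand of the CSF1 receptor made by stromal cells, was at 1332 ± 186 CPM in TauT+/+ and 1046 ± 377 CPM in TauT-/- libraries (-0.36 on the log2 scale, adjusted p = 0.388). Il34, which encodes the other ligand of this receptor, was scarce, at 7.34 ± 3.90 and 5.44 ± 3.35 CPM. Csf2ra, a chain of the GM-CSF receptor, was at 109 ± 43.8 and 145 ± 23.4 CPM (adjusted p = 0.325).

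Ptprc (chr1:137990599-138103446, minus strand), the CD45 phosphatase of all leukocytes, was counted 1739 to 32501 times per library after the CD45 depletion. It ran from 28.6 over 130 to 177 CPM in TauT+/+ and from 112 over 243 to 379 CPM in TauT-/- libraries. No library was without it, and the log2 fold change was 0.96 ± 0.34 (SE; adjusted p = 0.119). Itgam (chr7:127661808-127717753, plus strand), the integrin chain CD11b, stood at 134, 21.9, 126 and 62.5 CPM in the TauT+/+ males and at 133, 105 and 117 CPM in the females. In TauT-/- it stood at 131, 158, 266 and 390 CPM in the males and at 133, 212, 279 and 303 CPM in the females. The only overlap came from the near-identical TauT-/- pair, which matched the upper TauT+/+ libraries, and the other 6 lay above them all. The log2 fold change was 1.23 ± 0.35 (SE; adjusted p = 0.0762 by edgeR, 0.0144 by DESeq2).

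Cd14 (chr18:36858120-36859851, minus strand), the co-receptor for bacterial lipopolysaccharide, had the highest fold change of the 9. It was at 214, 31.9, 108 and 46.1 CPM in the TauT+/+ males and at 211, 129 and 147 CPM in the females. In TauT-/- it was at 190, 232, 284 and 369 CPM in the males and at 191, 354, 368 and 490 CPM in the females. TauT+/+ male 1 and female 1, themselves near-identical, were the 2 TauT+/+ libraries that reached into the TauT-/- range. The means were 127 ± 71.8 and 310 ± 105 CPM, with a log2 fold change of 1.28 ± 0.35 (SE; adjusted p = 0.0718 by edgeR, 0.0101 by DESeq2). Without TauT+/+ male 1 the log2 fold change was 1.60 and edgeR called the gene (adjusted p = 0.0486).

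Lyz2 (chr10:117111557-117118346, minus strand), the lysozyme of myeloid cells, was by far the most abundant. It ran from 741 over 3916 to 5864 CPM in TauT+/+ and from 2928 over 8333 to 11572 CPM in TauT-/- libraries, and made up 61.1% to 83.4% of the summed CPM of the 9 genes. Its log2 fold change was 1.01 ± 0.41 (SE; adjusted p = 0.153). The paralogue Lyz1 was at 3.95 ± 3.06 and 5.84 ± 5.22 CPM, and how reads common to both were assigned is uncertain.

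Adgre1 (chr17:57665573-57790527, plus strand), the adhesion receptor F4/80, varied more than the genes above. It was at 254, 35.2, 356 and 161 CPM in the TauT+/+ males and at 226, 326 and 1096 CPM in the females. In TauT-/- it was at 135, 208, 487 and 761 CPM in the males and at 155, 635, 336 and 3485 CPM in the females. Only TauT-/- female 4 exceeded the highest TauT+/+ library, TauT+/+ female 3. The log2 fold change was 1.02 ± 0.67 (SE; adjusted p = 0.370), and it was 0.30 without TauT-/- female 4. Aif1 (chr17:35387384-35395053, minus strand), the actin-binding protein IBA1, was the least abundant in CPM. It was at 8.47, 0.729, 11.7 and 2.72 CPM in the TauT+/+ males and at 6.17, 15.3 and 44.7 CPM in the females. In TauT-/- it was at 1.62, 3.31, 12.4 and 3.05 CPM in the males and at 0.972, 7.64, 9.16 and 37.2 CPM in the females. The values spread over nearly the same range in both genotypes, and the highest library of each was the one that was also highest for Adgre1. The log2 fold change was -0.43 ± 0.71 (SE; adjusted p = 0.751). It was 0.0080 without TauT+/+ female 3 and 0.33 without the 3 libraries that disagreed with their sex label.

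**Figure D2:**
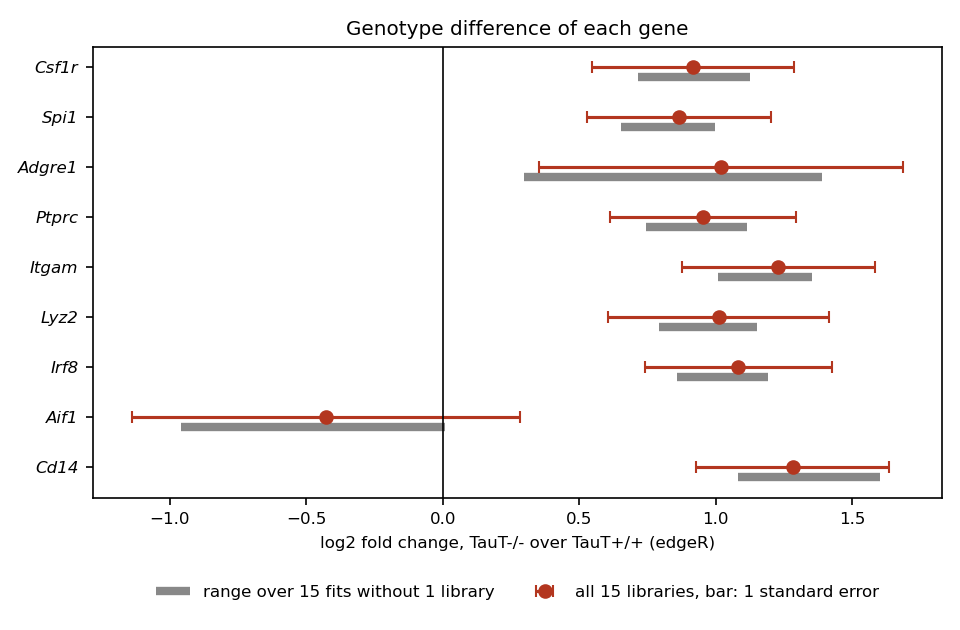
Log2 fold change of each gene, TauT-/- over TauT+/+, from the edgeR fit (points, with bars of 1 standard error) and the range over 15 fits that each left out 1 library (grey). The range stays above 0 for 8 genes, is widest for Adgre1 (0.30 to 1.39) and reaches 0.0080 for Aif1.

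Levels of different genes were compared per kilobase of exon, in CPM per kb. In TauT+/+ libraries Lyz2 led at 1156 CPM per kb, more than its SD of 506 above the next. Adgre1 (99.6), Cd14 (73.1) and Csf1r (67.6) followed and did not differ beyond their SDs. Spi1 (25.3) and Itgam (19.5) formed a lower step, with Ptprc at 6.48, Aif1 at 3.03 and Irf8 at 2.73. The exon union of Ptprc is 18.8 kb long against 5.12 kb for its canonical transcript. Over canonical transcripts Ptprc was at 23.7 CPM per kb, beside Itgam at 26.7, Csf1r (82.3) passed Cd14 (77.1) and Irf8 (5.23) passed Aif1 (3.74). 

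The genotype effect was also fitted within each sex label. In the male-labelled libraries the log2 fold changes were 1.45 for Itgam, 1.43 for Cd14, 1.11 for Irf8, 1.10 for Lyz2 and Spi1, 1.04 for Ptprc, 1.01 for Csf1r, 0.98 for Adgre1 and -0.21 for Aif1. In the female-labelled libraries they were 0.97, 1.11, 1.05, 0.91, 0.60, 0.85, 0.81, 1.07 and -0.68 for Itgam, Cd14, Irf8, Lyz2, Spi1, Ptprc, Csf1r, Adgre1 and Aif1. Direction was thus the same under both labels for each gene. The labels are not independent here, since each near-identical pair (male 1 and female 1 of each genotype) has a library under both. The difference between labels ran from -0.50 ± 0.68 (SE) for Spi1 to 0.09 ± 1.36 for Adgre1, and its adjusted p was 1.00 for all 9 (edgeR). Over all tested genes 0% were called for such a difference, and 295 had an unadjusted p under 0.05. These standard errors leave room for differences of the size of the effects themselves.

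Across the 15 libraries the 9 genes moved together, though less so Aif1 and, in part of the libraries, Adgre1. Over their 36 pairs the median Pearson r of log2(CPM + 0.5) was 0.908, from 0.408 to 0.981, and 26 pairs were above 0.8. These are descriptions with no p, since the libraries share genotypes and include near-identical pairs. Ptprc and Itgam (r = 0.981) and the regulator Spi1 with the receptor Csf1r (0.976) were the closest. The 21 pairs without Adgre1 and Aif1 ran from 0.819 to 0.981. Aif1 stood apart, with a median r of 0.568 over its 8 pairs and its highest, 0.815, with Adgre1. Within a genotype it was closer to the others, with a median of 0.80 in TauT+/+, 0.81 in TauT-/- and 0.74 after the 4 group means were subtracted. Adgre1 had a median of 0.819 with the remaining 7. Its median with them was 0.83 in TauT+/+ and 0.91 in TauT-/- libraries, and 0.94 in male-labelled and 0.67 in female-labelled libraries. Over all 36 pairs the median Spearman rho was 0.846.

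**Figure D3:**
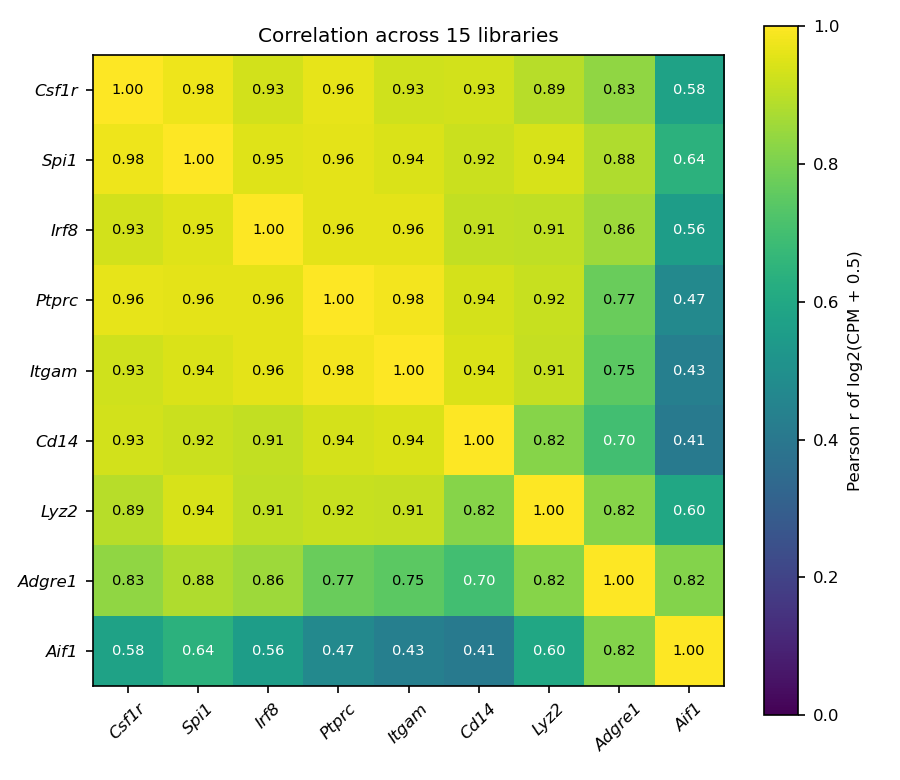
Pearson r of log2(CPM + 0.5) between each pair of the 9 genes over 15 libraries. The block of 7 genes from Csf1r to Lyz2 holds values from 0.82 to 0.98, and the row of Aif1 holds the lowest, from 0.41 to 0.82.

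The libraries at the ends carried part of this. Without TauT+/+ male 2 and TauT-/- female 4, the 2 farthest from the median of the mean level, the median r was 0.782, the 21 pairs ran from 0.620 to 0.966, and the median of Aif1 was 0.193. Within TauT+/+ alone the median was 0.908, within TauT-/- 0.871, within male-labelled 0.939 and within female-labelled libraries 0.819. After the 4 group means were subtracted it was 0.873. With 1 of each near-identical pair left out it was 0.916 or 0.914. 

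Ratios between the genes within a library were also compared. The log2 ratio of Spi1 to the mean of the other 8 had an SD of 0.19 over libraries, although the log2 level of Spi1 itself had an SD of 0.90. The SD of the ratio was 0.30 for Csf1r, 0.31 for Irf8, 0.37 for Ptprc, 0.40 for Lyz2, 0.43 for Itgam and 0.55 for Cd14. It was 0.81 for Adgre1 and 1.23 for Aif1. The mean log2 ratio of Aif1 was -4.37 ± 0.96 (SD) in TauT+/+ and -5.89 ± 1.01 in TauT-/- libraries, while that of Spi1 was -0.91 in both. The ratio of Cd14 was -0.19 ± 0.55 in TauT+/+ and 0.44 ± 0.37 in TauT-/- libraries.

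**Figure D4:**
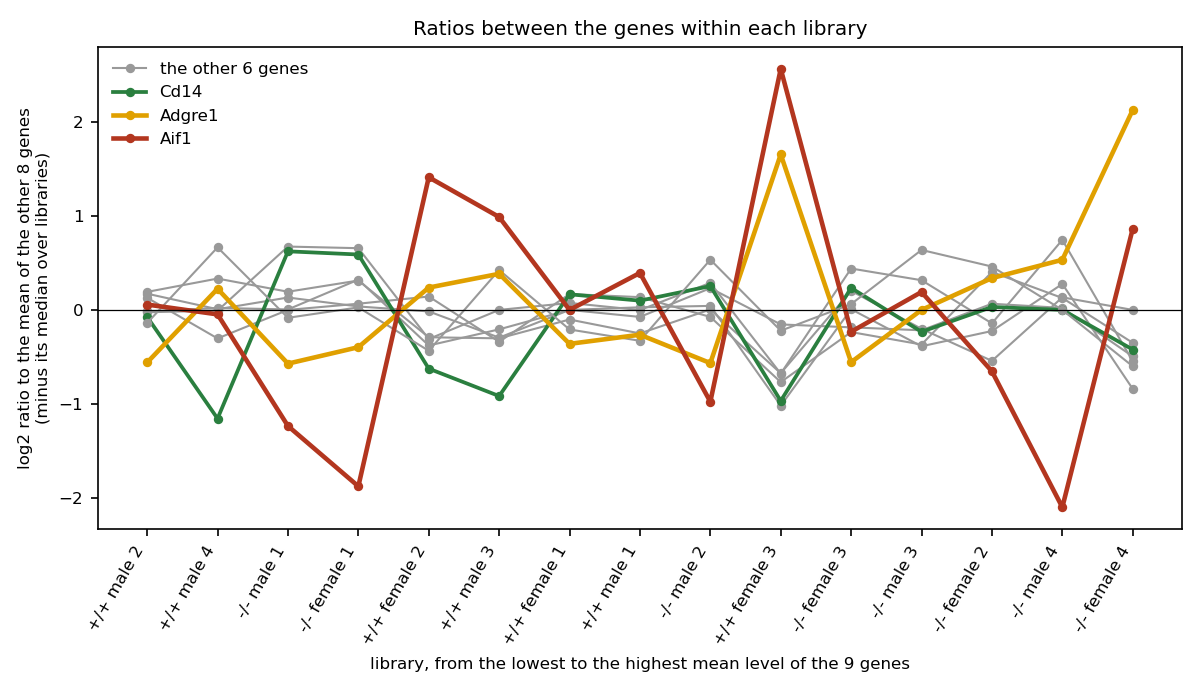
Log2 ratio of each gene to the mean of the other 8, minus its median over libraries, with libraries in order of the mean level of the 9 genes. Aif1 and Adgre1 depart furthest, both upwards in TauT+/+ female 3 and TauT-/- female 4, while the lines of the other genes stay closer to 0.

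The genes whose pattern was most like the mean of the 9 were searched among the other 18254 tested genes, where the median r was -0.033 and 238 had r over 0.9. Among the closest over 15 libraries were Hcls1, a cortactin-like protein of blood cells (r = 0.989), and the ETS factor Etv1 (0.986). Tbxas1, the thromboxane synthase (0.985), Shtn1 (0.985), Pik3cg, a catalytic subunit of PI3-kinase (0.982), Myo1f, a myosin (0.981), Ugt1a7c (0.981), Tyrobp, the adaptor DAP12 (0.981), and AB124611 (0.980) followed. Ugt1a7c shares exons with other genes of its cluster, so its counts are uncertain. Tyrobp was at 145 ± 61.5 CPM in TauT+/+ and 276 ± 99.6 CPM in TauT-/- libraries (adjusted p = 0.113).

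Most genes of a wider macrophage list, which holds 5 of the 9 genes, were also positive. Of 35 macrophage genes 33 were tested, and 31 had a positive fold change with a median of 0.94, beside 50.5% positive among all tested genes. At an unadjusted p under 0.05 by edgeR were 23 of the 33, beside 23.6% of all tested genes in either direction. By adjusted p 4 rose in the edgeR test, beside 0.564% of all tested genes. Without the 5 shared genes 27 of 28 were positive, with a median of 0.92, and none of the 4 is among the shared ones. These were Ctss, the lysosomal protease cathepsin S (191 ± 90.4 to 916 ± 749 CPM, log2 fold change 2.11, adjusted p = 0.0454), and Cd68, a lysosomal membrane glycoprotein (178 ± 83.5 to 532 ± 289 CPM, adjusted p = 0.0432). The others were Lgmn, the lysosomal protease legumain (218 ± 27.9 to 464 ± 147 CPM, 1.03, adjusted p = 0.0126), and Emilin2, an extracellular matrix glycoprotein (247 ± 26.6 to 450 ± 129 CPM, 0.87, adjusted p = 0.0381). In TauT+/+ libraries Lgmn ran from 179 to 252 CPM and Emilin2 from 213 to 290 CPM, narrow ranges beside those of the 9 genes. Pearson r with the mean level of the 9 genes within TauT+/+ was 0.97 for Cd68, 0.96 for Ctss, 0.83 for Lgmn and -0.57 for Emilin2. For Cd68, Emilin2 and Lgmn all 8 TauT-/- libraries lay above all TauT+/+ libraries, a pattern found in 0.788% of tested genes. Lgmn was called in 15 of 15 fits that left out 1 library, while Emilin2 was called in 6, Cd68 in 3 and Ctss in 2. Without the 3 libraries that disagreed with their sex label, adjusted p was 0.145 for Lgmn and Emilin2 and 0.156 for Cd68 and Ctss. With 1 of each near-identical pair left out, Lgmn was at 0.0509 or 0.0310, depending on which was kept.

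The pan-leukocyte list had 19 of 20 genes positive (median 0.95) and 0 called by edgeR, with 16 at an unadjusted p under 0.05, beside 23.6% of all tested genes. Without Ptprc, which is on it, 18 of 19 were positive (median 0.94). Lcp1, an actin bundler of blood cells, was at 654 ± 304 and 1194 ± 409 CPM (adjusted p = 0.138). Myeloid transcription factors were less uniform: 12 of 19 tested were positive and 7 negative, with 0 called and 10 at an unadjusted p under 0.05. Without Spi1 and Irf8 10 of 17 were positive, with a median of 0.45. Cebpa, a factor of early myeloid and fat cell development, was at 347 ± 233 CPM in TauT+/+ and 133 ± 84.9 CPM in TauT-/- libraries (-1.38, adjusted p = 0.123). Zeb2 (310 ± 118 and 266 ± 68.3 CPM) and Maf (195 ± 53.4 and 180 ± 50.1 CPM) were the other abundant ones.

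Markers of other cells were set beside the 9 genes. The 20 stromal genes, all tested, had 16 negative fold changes, a median of -0.60 and 0 calls by edgeR (6 at an unadjusted p under 0.05, a share near the 23.6% of all tested genes). Their summed level was 37103 to 52684 CPM in TauT+/+ and 8513 to 50232 CPM in TauT-/- libraries, and was lowest in TauT-/- female 4. Col1a1, a chain of type I collagen, was at 12747 ± 3011 and 8098 ± 6693 CPM (adjusted p = 0.343). The stromal sum had r = -0.61 with the mean level of the 9 genes, -0.46 in male-labelled and -0.84 in female-labelled libraries, and -0.42 without the 2 farthest libraries. CPM are shares of a library, and the part of the stromal level in the results above was not tested. Lymphoid and erythroid markers were low, with Ighm up to 10.3 CPM in TauT-/- and Epor up to 4.31 CPM in TauT+/+ libraries. The sum of 11 T and NK cell genes was at most 2.27 CPM, that of 7 B cell genes at most 10.4 CPM and that of 8 erythroid genes at most 4.66 CPM. Cd3e and Cd8a had 0 counts in every library, which allows up to 0.0307 to 0.224 CPM by 3 counts per library. Neutrophil genes summed to 6.78 to 34.5 CPM in TauT+/+ and 3.52 to 93.5 CPM in TauT-/- libraries.

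**Figure D5:**
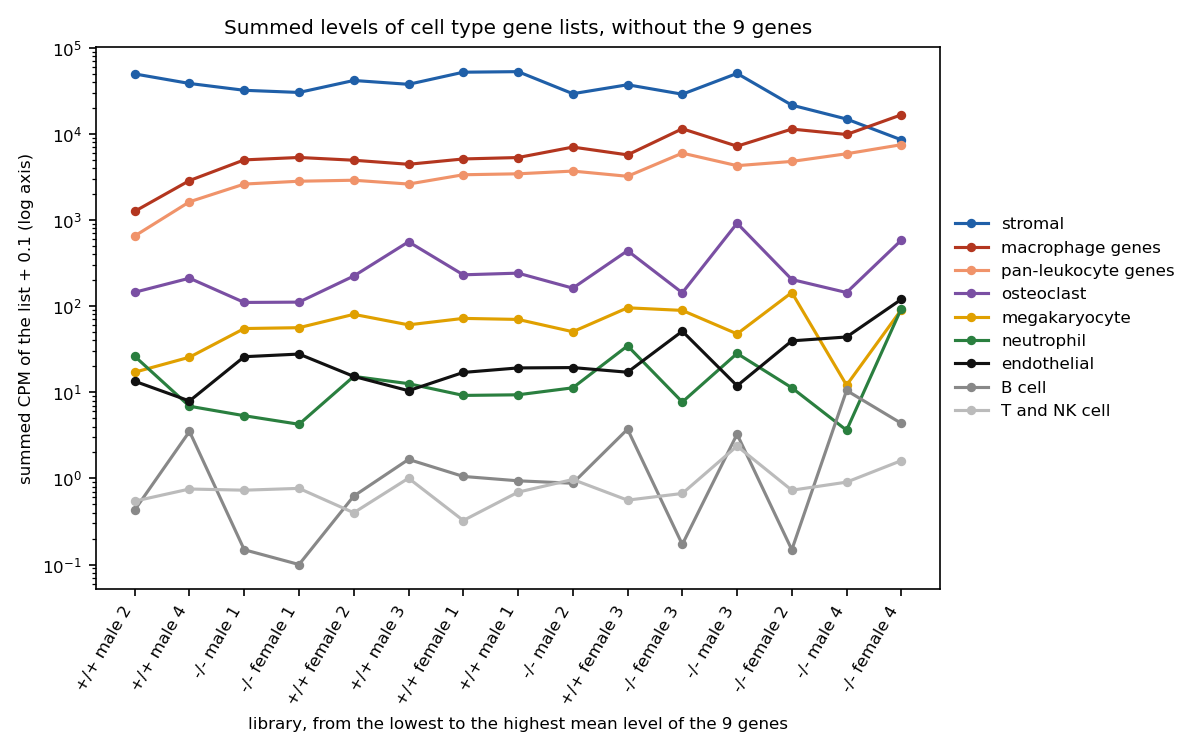
Summed CPM (plus 0.1, log axis) of cell type gene lists, with the 9 genes themselves left out of each, in every library, with libraries in order of the mean level of the 9 genes. The macrophage and pan-leukocyte sums are lowest in TauT+/+ male 2 and highest in TauT-/- female 4, the stromal sum drops to 8513 CPM in TauT-/- female 4, and the T and NK cell sum stays at or below 2.27 CPM.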

How the data were processed

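RNA-sequencing counts of 15 MSC libraries were analysed. Per the methods of the study, full-length cDNA was made with the SMART-Seq mRNA LP kit, reads were filtered with fastp 0.23.1, mapped with STAR 2.7.9a to GRCm39 with GENCODE M31, and counted with featureCounts of Subread 2.0.1 by strand. The deposited values are raw counts per gene made by the authors, and 0 columns were without a sample. Where the kit does not mark strand, reads of overlapping antisense genes (as at Aif1, Csf1r, Lyz2 and Spi1) cannot be told apart. Groups came from the labels.

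Genotypes were compared by edgeR 4.0.16 under R 4.3.3 (TMM, filterByExpr by group, quasi-likelihood test with sex label and genotype, 18263 genes, Benjamini-Hochberg adjustment over all of them, threshold 0.05, two-sided). The contrasts within and between sex labels used 1 term per group. The biological coefficient of variation was 0.494. CPM are counts over the library total times its TMM factor. Gene positions and lengths are from GENCODE M39 on GRCm39. DESeq2 1.42.0, limma 3.58.1 voom, other filters, scaling, covariates and subsets of libraries were alternatives. The fits were tested on simulated data, with 200 genes changed 4-fold among the 18263 in the comparison of genotypes. Of the 200, edgeR recovered 81%, DESeq2 84.5% and voom 77%. Among the unchanged genes edgeR called 3, DESeq2 23 and voom 1. Recovery at smaller fold changes was not tested. The simulated spread was 1 value for all genes. The total counts give 19 to 1132026 counts for each of the 9 genes in each library, so counting error is small beside the spread between libraries.

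The 9 genes and all lists were chosen with earlier results of these data known. Named were the 9 genes, from each list the genes past the threshold (the 4 largest changes if more) and the 3 most abundant, the 10 genes most alike, and Slc6a6. Not every gene that the rule names is reported here. Il34, Lyz1, Cd3e and Cd8a lie outside this rule or were chosen after their values were seen.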

Additional observations from a re-analysis of the deposited data

Results flagged for a closer look

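In 2 cases, values in CPM stood apart from the other libraries of their group by more than Dixon's 95% critical value allows. The log2 levels used in the results above were not tested in this way. Adgre1 in TauT-/- female 4 (3485 CPM) lay above the other TauT-/- female libraries (155 to 635 CPM), with a gap of 0.856 of the range of the group. Aif1 in TauT-/- male 3 (12.4 CPM) lay above the other TauT-/- male libraries (1.62 to 3.31 CPM), with a gap of 0.844 of the range. Over the 27 groups tested, each of 4 libraries, chance at 1 in 20 gives 1.35 such values. The smaller TauT+/+ female group was not among them.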

How the results depend on the processing

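Among the 9 genes, 8 kept a positive fold change under all 27 alternatives. Aif1 reversed to 0.33 without the 3 libraries that disagreed with their sex label and to 0.0080 without TauT+/+ female 3, and ran from -0.96 to 0.0080 over the fits without 1 library. The number of the 9 called higher was 3 by DESeq2, 2 by voom and 0 to 1 over the fits without 1 library, and 0 were called lower under any alternative. The median correlation stayed between 0.782 and 0.939 under its 26 alternatives.

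Calls over the whole table were less stable. Beside 103 higher and 108 lower genes, DESeq2 called 976 and 1120, voom 659 and 535, the model with no sex term 208 and 202, and no filter on low counts 32 and 42. A minimum of 10 counts in every library gave 200 lower. With 1 of each near-identical pair left out, 2 (female-labelled kept) or 7 (male-labelled kept) were called higher and 0 lower. The 12 libraries that matched their sex label gave 0 and 0 (3284 at an unadjusted p under 0.05), as did the male-labelled (1278) and the female-labelled libraries alone (2014). Leaving out 1 library gave 8 to 470 higher and 4 to 766 lower, the most without TauT+/+ male 3 and the fewest lower without TauT+/+ female 1 or 2. The causes were not tested.

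With the replicate number as a block, 69 genes were called higher and 102 lower by edgeR, and 0 of the 9 genes (lowest adjusted p = 0.0980). At an unadjusted p under 0.05 were 4 of the 9 instead of 7, beside 4817 of 18263 tested genes instead of 4309. The log2 fold change of Adgre1 was 0.42 under the block and that of Aif1 -0.88. Same-numbered libraries had correlations of 0.278, 0.215, 0.612 and 0.191 (male) and 0.263, 0.063 and -0.048 (female), and 11 of 14 libraries, all male-labelled ones included, matched best with their own number. Not every pair was above 0.1 and the labels name no shared animal, litter or day, so the numbers were not taken as pairs. Depth limits the female-labelled libraries most, with 19 counts of Aif1 in TauT-/- female 1.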

Other observations

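Genes of other marrow cells were also measured. The osteoclast list, cells that share a progenitor with macrophages, had 5 of 8 tested genes positive (median 0.34) and 0 called by edgeR. Mmp9 was at 131 ± 122 CPM in TauT+/+ and 123 ± 177 CPM in TauT-/- libraries, and Ctsk, the bone collagen protease, at 95.3 ± 22.0 and 67.3 ± 37.1 CPM. The dendritic cell list had 3 of 4 tested genes positive (median 0.52) and 0 called, with Itgax, the integrin chain CD11c, at 6.04 ± 4.62 and 16.4 ± 12.7 CPM (adjusted p = 0.149). The neutrophil list had 2 of 4 positive (median 0.19), and the mast cell and basophil list 2 of 3 (median 0.35), with 0 called in each. Pf4, a platelet chemokine, led the megakaryocyte list (1 of 3 positive, median -0.07) at 54.8 ± 28.5 and 63.3 ± 40.2 CPM.

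The endothelial list had 5 of 7 tested genes positive (median 0.22) and 0 called by edgeR, with 2 at an unadjusted p under 0.05, beside 23.6% of all tested genes. Kdr, the VEGF receptor, was at 2.85 ± 1.89 CPM in TauT+/+ and 16.3 ± 11.8 CPM in TauT-/- libraries (log2 fold change 2.18 ± 0.52 SE, adjusted p = 0.0564), and Vwf at 7.85 ± 3.87 and 22.0 ± 23.5 CPM (adjusted p = 0.174). Pecam1, which encodes the CD31 used in the depletion, was at 1.30 ± 2.15 and 1.19 ± 2.31 CPM. Of the remaining lists, the T and NK cell list had 3 tested genes (3 positive), the B cell list 1 (0.36) and the erythroid list 2 (-1.01), with 0 called in each.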
